A study of Mus musculus with 8 samples.

Results

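The 7 genes described here carry glutamate out of the extracellular space and turn it into glutamine in the cerebellum: the glutamate transporters Slc1a1, Slc1a2, Slc1a3 and Slc1a6, the enzymes Glul and Glud1, and the glutamine transporter Slc38a3. They were chosen by symbol, each matched 1 row, and they make up 7 of the 24060 rows of the count table. All 7 passed the filter on low counts. RNA was sequenced from whole cerebellum of 8 mice, each mouse giving 1 library. The 4 bigenic mice carried the CalExflox allele, from which a calcium-exporting plasma membrane pump is made after Cre recombination, and Aldh1l1-Cre/ERT2, a tamoxifen-activated recombinase driven in astrocytes. The 4 control mice carried CalExflox and no Cre. All 8 mice received a single intraperitoneal dose of tamoxifen in corn oil at 75 mg/kg, and tissue was taken 5 days later. Sex and age are not given, and the effect of the pump cannot be told apart from that of Cre. The comparison asks how these genes differ in the cerebellum after the pump was switched on in astrocytes.

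Glutamate released by cerebellar neurons is cleared by sodium-coupled transporters. Slc1a3 encodes GLAST, the transporter of Bergmann glia, whose processes wrap the synapses on Purkinje cells. Slc1a2 encodes GLT-1, found in astrocytes throughout the brain. Slc1a6 encodes EAAT4 of Purkinje cells, and Slc1a1 encodes EAAC1 of neurons. In astrocytes glutamine synthetase, the product of Glul, joins ammonia to glutamate. The glutamine leaves through carriers such as SNAT3, the product of Slc38a3, and neurons convert it back to glutamate. Glutamate dehydrogenase, the product of Glud1, instead feeds glutamate into mitochondrial metabolism.

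The libraries held between 35208460 and 38293012 counted reads. Of 15186 genes tested, 44.3% passed an adjusted p of 0.05 in edgeR's quasi-likelihood test, 21.4% higher and 22.9% lower in bigenic tissue. With library size alone as the scaling, 2423 genes were higher and 4373 lower, against 3249 and 3485 with TMM scaling. The summed level of 10 choroid plexus markers was higher in each control library than in the bigenic libraries, and highest in control libraries 2 and 3. It ran from 163.5 to 232.1 CPM (counts scaled to the size of the library) in the bigenic libraries and from 295 to 4859 CPM in the controls. Control libraries 1, 2 and 3 held 665.3, 3830 and 4859 CPM. In control library 4, Enpp2 alone made up 248.5 of the 295 CPM. There Kcnj13, Clic6, Aqp1 and Slc4a5 lay below every bigenic library, and Kl, Prlr and Otx2 above. Control library 4 thus showed no uniform excess of these markers. Ttr, the leading marker, was at 2.25 to 4.62 CPM in the bigenic libraries. Its control values were 300.2, 2360, 2961 and 2.77 CPM, in the order of libraries 1 to 4. A fit without control libraries 2 and 3 therefore still holds control library 1. Only control library 4 lay in the bigenic range of Ttr. The group difference in a fit with Ttr as a covariate therefore rests largely on that library. Control library 4 stood apart in Slc17a6, described below. Markers of Purkinje cells, granule cells, astrocytes and Bergmann glia were present in every library, with 0 of them at a count of 0. In bulk tissue, fewer cells of a type and less RNA per cell cannot be told apart.

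Promoter sequences are shown for Glul and Slc1a3, the most abundant enzyme and transporter among the members. Both genes are expressed in Bergmann glia, and in bigenic tissue Glul rose while Slc1a3 did not pass the test. They are RefSeq sequences on GRCm38.p6, from 250 bases before to 50 after the annotated start, 5′ to 3′ on the gene's strand. Capitals mark matches, on either strand, to 4 short motifs. The letters searched were TGTTCT for a half-site of the glucocorticoid response element. For the promoter element bound by the factor NF-Y the search used its name's letters, CCAAT. A GC box, the element of Sp factors, was searched as GGGCGG. The core promoter's TATA box was searched as TATAAA. The Glul window lies at chr1:153899679-153899978, plus strand, and the Slc1a3 window at chr15:8710758-8711057, minus strand.
Glul: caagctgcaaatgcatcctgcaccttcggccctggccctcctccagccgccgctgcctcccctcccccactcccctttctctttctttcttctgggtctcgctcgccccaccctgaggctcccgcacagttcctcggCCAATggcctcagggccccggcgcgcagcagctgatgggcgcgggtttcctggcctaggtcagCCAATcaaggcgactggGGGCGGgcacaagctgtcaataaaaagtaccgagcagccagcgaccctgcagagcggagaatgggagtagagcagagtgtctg
Slc1a3: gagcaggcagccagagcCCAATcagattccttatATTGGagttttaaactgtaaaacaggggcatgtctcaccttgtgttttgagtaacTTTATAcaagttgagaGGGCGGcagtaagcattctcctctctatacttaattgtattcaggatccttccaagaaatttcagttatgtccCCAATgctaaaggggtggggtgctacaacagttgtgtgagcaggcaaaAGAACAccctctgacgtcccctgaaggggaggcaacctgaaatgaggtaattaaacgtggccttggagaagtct
The Glul window held 2 CCAAT boxes and 1 GC box. The Slc1a3 window held 3 CCAAT boxes, 1 GC box, 1 half-site and 1 match to the TATA letters. That match reads TTTATA, on the opposite strand, with its first base at -161 from the annotated start. Among 32851 mouse promoters of the same length in the table, 37.4% held a CCAAT box, 35.7% a GC box, 13.6% a TATA box and 19% a half-site. The full response element, which is an inverted repeat of the half-site, was in 0.00913% of them and in neither window. These matches describe letters in 300 bases and say nothing of factor binding. Of the 7 members, 6 had an entry in this table.

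Glutamine synthetase had the largest fold change of the 7 genes. Glul (chromosome 1, 153899944 to 153909723, plus strand) had 2775, 2524, 2993 and 2676 CPM in bigenic libraries 1 to 4, against 1307, 1364, 1341 and 1455 CPM in control libraries 1 to 4. Every bigenic library lay above every control, and the lowest bigenic value was well clear of the highest control. Among all genes tested, 40.7% had groups that did not overlap. Glul averaged 2742 ± 197 CPM in the bigenic and 1367 ± 63.5 CPM in the control libraries (SD, n = 4 each), a 2.01-fold difference with a 95% interval of 1.8-fold to 2.24-fold. Its log2 fold change was 1.00 ± 0.07 (SE; edgeR adjusted p = 4.8e-06). Without control libraries 2 and 3 it was 0.99 (edgeR adjusted p = 0.0011), and without control library 4 it was 1.03 (edgeR adjusted p = 2.3e-05). Glul ranked 31st by mean FPKM among all rows and took 0.134% to 0.284% of the counted reads of a library. Its exons overlap Mir8114 on the same strand, which had 0 counts in every library, and Teddm2 on the opposite strand.

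Glucocorticoid-responsive genes were higher in the same libraries. Glul itself is a textbook target of the glucocorticoid receptor in astrocytes. Of 20 genes in a list of such targets that leaves Glul out, 19 rose, 0 fell and Dusp1 did not pass, with a median log2 fold change of 2.20. Over all genes tested, 21.4% were called higher and the median was 0.0. Their summed level was 3103 to 4366 CPM in bigenic and 959.6 to 1063 CPM in control libraries. The list was chosen with earlier results of these libraries known and is no independent evidence. Its part in the change of Glul was not tested.

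**Figure D1:**
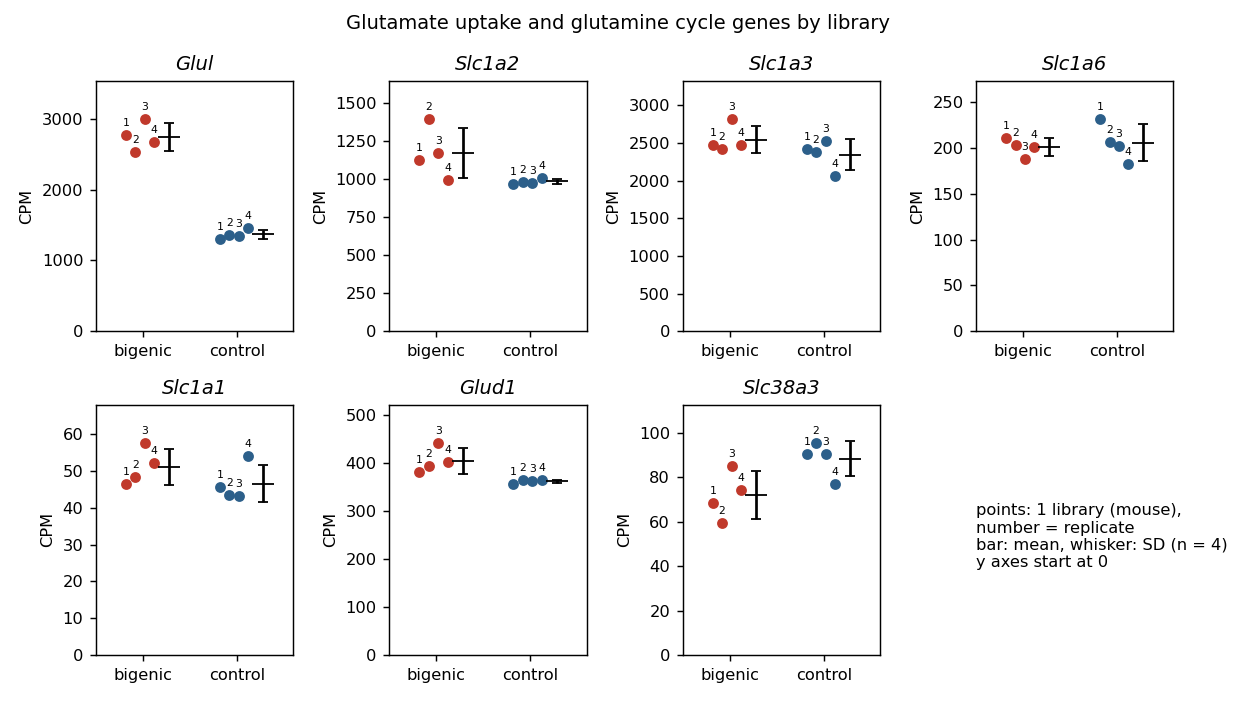
Level of each of the 7 genes in CPM (y axis, from 0) in the 4 bigenic and the 4 control libraries. Points are single libraries with their replicate number, bars are means and whiskers SDs (n = 4 each). The 4 Glul values lie between 2524 and 2993 CPM in bigenic and between 1307 and 1455 CPM in control libraries, while the groups overlap for Slc1a1, Slc1a2, Slc1a3, Slc1a6 and Slc38a3.

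Of the glial glutamate transporters, Slc1a2 passed the test narrowly and Slc1a3 did not pass. Slc1a2 (chromosome 2, 102658659 to 102790784, plus strand) had 1126, 1392, 1168 and 993.6 CPM in bigenic libraries 1 to 4 and 966.2, 981.6, 975.7 and 1009 CPM in control libraries 1 to 4. Bigenic library 2 was the highest, and bigenic library 4 lay within the control range. The bigenic values spread over a coefficient of variation of 14.1%, against 1.88% in controls. The log2 fold change of 0.25 ± 0.09 (SE) passed narrowly (edgeR adjusted p = 0.046), a 1.19-fold difference with a 95% interval of 1.03-fold to 1.37-fold. The call was lost in 7 of the 8 fits that left out 1 library. By edgeR's adjusted p, it was lost without bigenic library 1 (0.27, adjusted p = 0.063), library 2 (0.16, adjusted p = 0.084) or library 3 (0.24, adjusted p = 0.076). In the controls, edgeR no longer called it without library 1 (0.24, adjusted p = 0.090), library 2 (0.25, adjusted p = 0.0999), library 3 (0.25, adjusted p = 0.094) or library 4 (0.26, adjusted p = 0.070). It was also lost without control libraries 2 and 3 together (0.24, edgeR adjusted p = 0.21) and with library size alone as the scaling (0.17, edgeR adjusted p = 0.16). An exon of Slc1a2 overlaps Gm13872 on the opposite strand.

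Slc1a3, the transporter of Bergmann glia (chromosome 15, 8634124 to 8710764, minus strand), did not pass. It had 2480, 2417, 2817 and 2473 CPM in bigenic libraries 1 to 4 and 2424, 2377, 2528 and 2060 CPM in control libraries 1 to 4. The groups overlapped, with bigenic library 3 the highest and control library 4 the lowest. The log2 fold change was 0.12 ± 0.08 (SE; edgeR adjusted p = 0.26), and its 95% interval ran from 0.959-fold to 1.23-fold. Without control library 4 it was 0.06. It ranked 40th by mean FPKM among all rows.

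The neuronal transporters did not pass either. Slc1a6, the transporter of Purkinje cells (chromosome 10, 78780496 to 78814765, plus strand), had 210.9, 203.4, 187.9 and 201.7 CPM in bigenic libraries 1 to 4 and 231.6, 206.8, 202 and 182.5 CPM in control libraries 1 to 4. The bigenic values lay inside the control range. The log2 fold change was -0.03 ± 0.08 (SE; edgeR adjusted p = 0.75), with a 95% interval of 0.865-fold to 1.1-fold. It was 0.08 when Ttr, which marks choroid plexus, entered the fit as a covariate and 0.03 without control library 1, and -0.12 with library size alone, so its sign is not fixed.

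Slc1a1, the transporter of neurons in general (chromosome 19, 28835049 to 28913960, plus strand), was the lowest of the 4 transporters. It had 46.44, 48.45, 57.63 and 52.1 CPM in bigenic libraries 1 to 4 and 45.58, 43.36, 43.27 and 54 CPM in control libraries 1 to 4. Control library 4 lay within the bigenic range, and the groups overlapped. The log2 fold change was 0.14 ± 0.10 (SE; edgeR adjusted p = 0.28), with a 95% interval of 0.948-fold to 1.27-fold. It was -0.08 with the Ttr covariate. The gene 4430402I18Rik, with 57 to 125 counts in a library, overlaps it on the opposite strand.

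Levels of different genes were compared per length, in FPKM (fragments per kilobase of gene, scaled to the library's total). Slc1a3 made up most of the transporter RNA, with 587.3 ± 33.8 FPKM in bigenic and 574.0 ± 41.9 FPKM in control tissue (SD, n = 4 each). Slc1a2 averaged 94.03 ± 12.9 FPKM in bigenic and 83.89 ± 2.62 FPKM in control tissue, and Slc1a6 averaged 93.42 ± 5.79 FPKM and 101.3 ± 9.48 FPKM in the same order of groups. Slc1a2 and Slc1a6 therefore stood at levels within their spread of each other in bigenic tissue. Slc1a1 was far below, at 13.38 ± 1.11 FPKM in bigenic and 12.94 ± 1.59 FPKM in control tissue.

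The share of each transporter overlapped between the groups. Of the summed FPKM of the 4 transporters, Slc1a3 held 74.5% ± 2.12 in bigenic and 74.3% ± 1.47 in control tissue, a difference of 0.195 in percent (exact permutation test, two-sided, p = 0.83, adjusted p = 0.892). Slc1a2 held 11.9% ± 1.71 in bigenic and 10.9% ± 1.01 in control tissue (exact permutation p = 0.371, adjusted p = 0.52). Slc1a6 held 11.9% ± 1.06 in bigenic and 13.1% ± 0.824 in control tissue (exact permutation p = 0.0857, adjusted p = 0.171). Slc1a1 held 1.70% ± 0.112 in bigenic and 1.69% ± 0.315 in control tissue (exact permutation p = 0.971, adjusted p = 0.971). The sum itself was 788.1 ± 27.2 FPKM in bigenic and 772.2 ± 44.1 FPKM in control tissue (SD, n = 4 each; exact permutation p = 0.629).

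**Figure D2:**
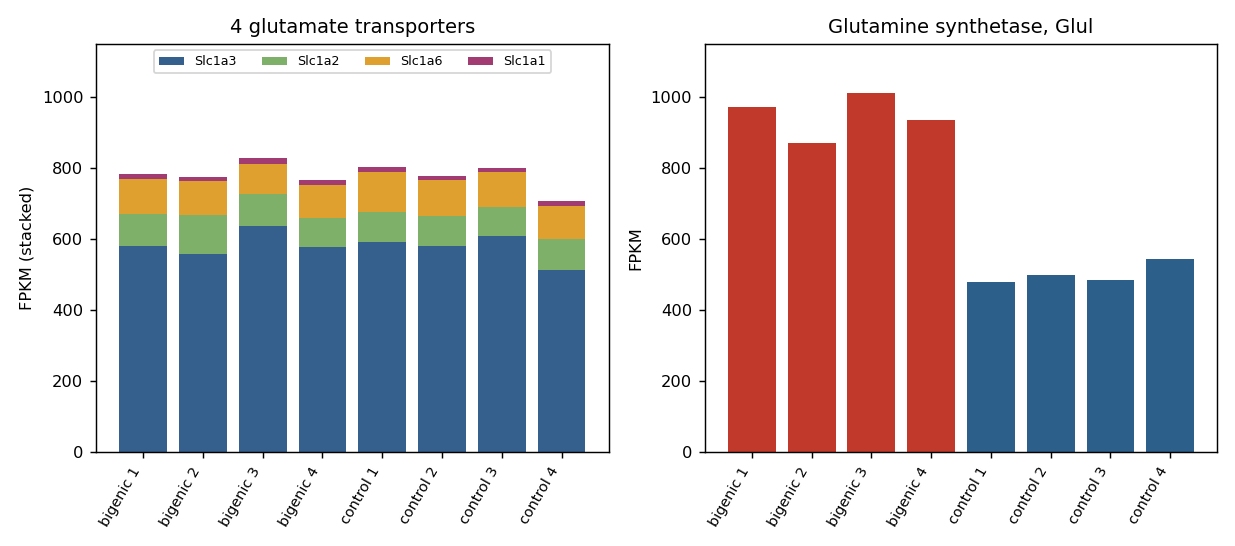
FPKM in each library (y axes from 0), with the 4 bigenic libraries left of the 4 controls. Left, the glutamate transporters stacked, whose sum runs from 766.7 to 827.7 FPKM in bigenic and from 708.1 to 802.3 FPKM in control libraries; right, Glul, with all 4 bigenic bars above all 4 controls.

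Glutamate dehydrogenase was slightly higher without passing the test. Glud1 (chromosome 14, 34310727 to 34345265, plus strand) had 379.6, 393.1, 441.1 and 400.5 CPM in bigenic libraries 1 to 4 and 356.2, 363.6, 360.8 and 363.6 CPM in control libraries 1 to 4. In CPM every bigenic library lay above every control, as for 19.4% of all genes tested. In FPKM the groups overlapped, with 118.1 in bigenic library 1 and 120.7 in control library 4. The controls varied by 0.97% (coefficient of variation of CPM) against 6.56% in the bigenic libraries. The log2 fold change was 0.16 ± 0.07 (SE; edgeR adjusted p = 0.071), a 1.12-fold difference with a 95% interval of 1.01-fold to 1.24-fold before adjustment. It passed without bigenic library 2 (0.17, edgeR adjusted p = 0.0497) and with DESeq2 (0.17, DESeq2 adjusted p = 0.034). It was 0.07 with library size alone as the scaling (edgeR adjusted p = 0.35) and 0.07 in limma's fit to log2(FPKM + 1) (limma adjusted p = 0.32).

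The glutamine transporter Slc38a3 was lower in bigenic tissue by a narrow margin. Slc38a3 (chromosome 9, 107650634 to 107669530, minus strand) had 68.46, 59.35, 85.16 and 74.38 CPM in bigenic libraries 1 to 4 and 90.44, 95.51, 90.63 and 77.14 CPM in control libraries 1 to 4. In 3 bigenic libraries it lay below every control, and bigenic library 3 lay above control library 4. It averaged 71.84 ± 10.8 CPM in the bigenic and 88.43 ± 7.88 CPM in the control libraries (SD, n = 4 each), a log2 fold change of -0.30 ± 0.11 (SE; edgeR adjusted p = 0.042). The call was lost in 6 of the 8 fits that left out 1 library. By edgeR's adjusted p, these were the fits without bigenic library 1 (-0.28, adjusted p = 0.098), library 2 (-0.22, adjusted p = 0.079) or library 4 (-0.32, adjusted p = 0.072). In the controls they were those without library 1 (-0.29, edgeR adjusted p = 0.078), library 2 (-0.26, edgeR adjusted p = 0.115) or library 3 (-0.29, edgeR adjusted p = 0.090). Without control libraries 2 and 3 together it was -0.22 (edgeR adjusted p = 0.285), and with the Ttr covariate it was -0.12 (edgeR adjusted p = 0.62).

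Among the 7 members, then, 2 were called higher, 1 lower and 4 not called, against a background of 44.3% of all genes called. Their median log2 fold change was 0.14. Only Glul kept its call in each of the 19 alternative fits.

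**Figure D3:**
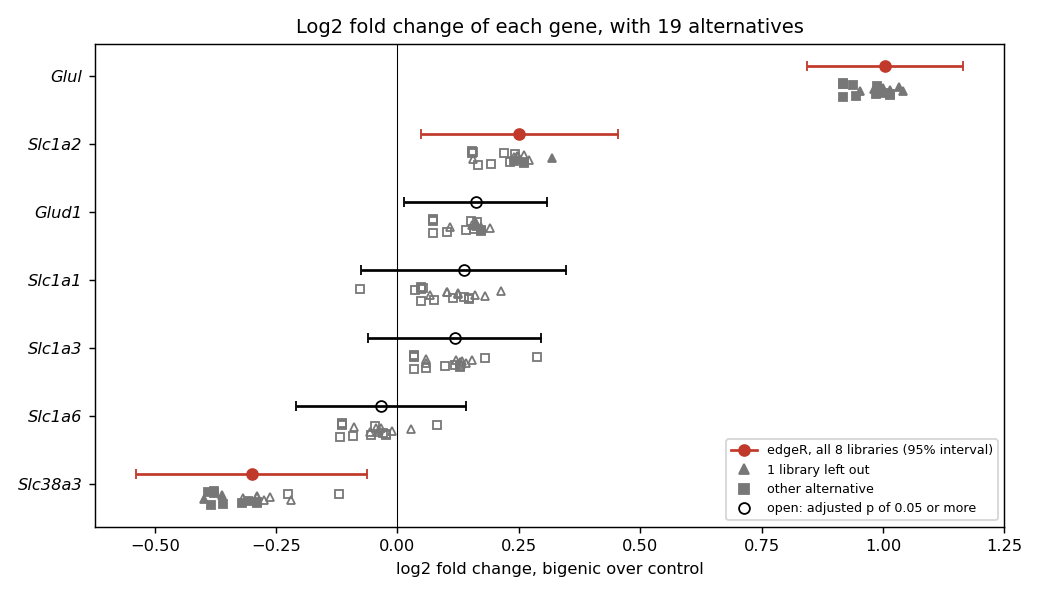
Log2 fold change of each gene, bigenic over control (x axis). Circles with 95% intervals are edgeR's fit to all 8 libraries, triangles are fits without 1 library and squares the other alternatives; filled symbols passed an adjusted p of 0.05. Glul stays between 0.92 and 1.04 with every symbol filled, whereas Slc1a2, Glud1 and Slc38a3 have filled and open symbols.

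Glul was higher relative to Slc1a3, Slc1a2, Glud1 and Slc38a3 in every bigenic library, in ratios that do not depend on the scaling between libraries. Glul RNA per Slc1a3 RNA was 1.68, 1.56, 1.59 and 1.62 in bigenic libraries 1 to 4 and 0.808, 0.86, 0.795 and 1.06 in control libraries 1 to 4, as ratios of FPKM. Glul thus exceeded the transporter in every bigenic library and lay below it in 3 of the 4 controls. Per Glud1, Glul stood at 7.22 to 8.22 in bigenic and 4.13 to 4.5 in control libraries. Per summed astrocyte markers it stood at 0.18 to 0.189 in bigenic and 0.105 to 0.122 in control libraries, a difference of 0.737 in mean log2 ratio. Each of these 3 ratios had groups that did not overlap and p = 0.0286 (exact permutation test, two-sided), the smallest this design allows.

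Per Slc1a2, Glul was 10.6, 7.8, 11 and 11.6 in bigenic libraries 1 to 4 and 5.81, 5.97, 5.91 and 6.2 in control libraries 1 to 4. Slc38a3 per Glul, the glutamine exporter over the enzyme, was 0.0254, 0.0242, 0.0293 and 0.0286 in bigenic libraries 1 to 4 and 0.0713, 0.0721, 0.0696 and 0.0546 in control libraries 1 to 4. The groups were apart in both, and the mean log2 ratio of exporter to enzyme was lower by 1.31 in bigenic tissue. Slc1a3 per summed Bergmann glia markers was 0.474 to 0.504 in bigenic and 0.419 to 0.473 in control libraries, apart by the narrowest margin, with a difference of 0.116 in mean log2 ratio. From counts not divided by length that difference was 0.0903 (exact permutation test, adjusted p = 0.229), no longer at the smallest p. Of the 14 ratios and shares tested, 6 reached the smallest p, and their adjusted p was 0.0667 (exact permutation test), so none passed the threshold after adjustment. All of these except Slc1a3 per summed Bergmann glia markers have Glul as a term, so they share the difference in Glul and are not separate results.

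The other ratios overlapped between the groups. Slc1a2 per Slc1a3 differed by 0.121 in mean log2 ratio (exact permutation p = 0.457, adjusted p = 0.582), and Slc1a1 per Slc1a2 by -0.103 (exact permutation p = 0.543, adjusted p = 0.633). Slc1a6 per Slc1a3 differed by -0.149 (exact permutation p = 0.171, adjusted p = 0.267) and per summed Purkinje markers by -0.174 (exact permutation p = 0.114, adjusted p = 0.2).

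**Figure D4:**
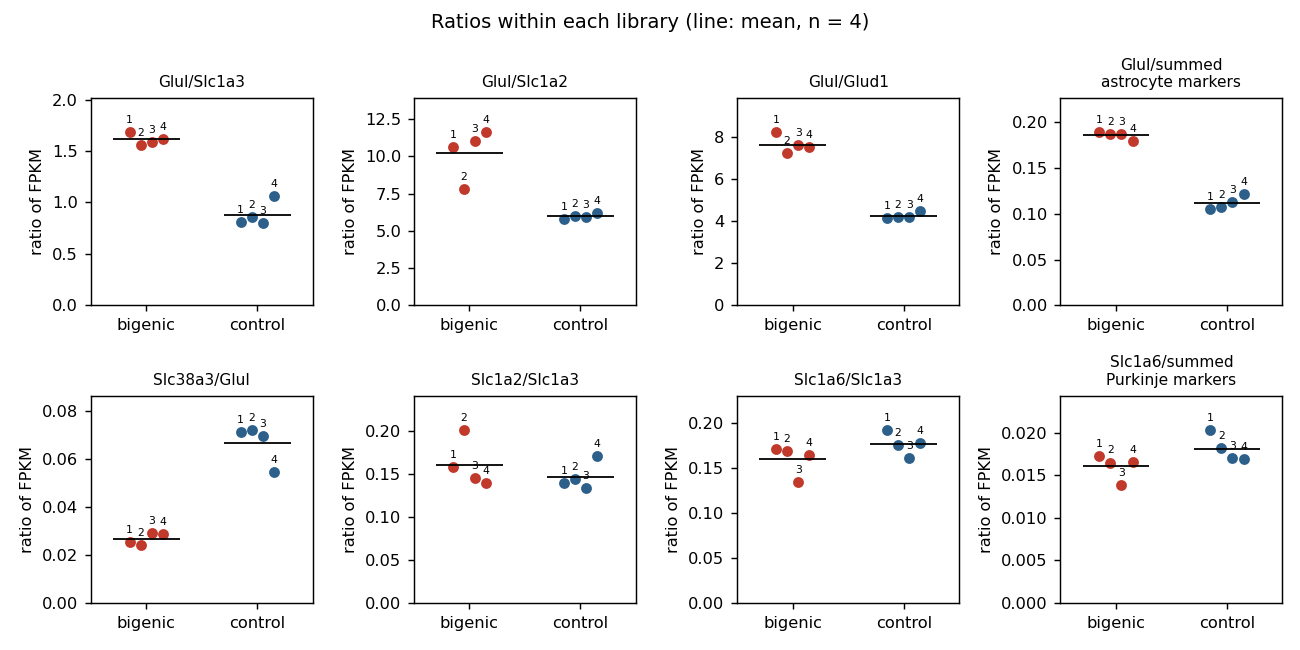
Ratios of FPKM within each library (y axes from 0), bigenic left of control; points are libraries with their replicate number and lines are means (n = 4 each). In the 4 panels with Glul as numerator, and in Slc38a3 per Glul, the groups do not overlap; in the other 3 they do.

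Genes of the wider pathway were called in both directions, at shares near the background. Of 28 further genes of glutamate and glutamine transport and metabolism, 26 passed the filter on low counts, 7 of these were called higher and 6 lower, and 13 were not called, where 21.4% of all genes tested were called higher and 22.9% lower. Their median log2 fold change was 0.05, against 0.0 over all genes tested. Of the 13 called, 7 kept their call in all 19 alternatives, 4 higher and 3 lower. Slc1a7 and Slc17a8 did not pass the filter.

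Slc1a5, which encodes the neutral amino acid exchanger ASCT2, had 3.25, 2.27, 3.44 and 3.00 CPM in bigenic libraries 1 to 4 and 1.45, 1.85, 1.22 and 1.12 CPM in control libraries 1 to 4. Its log2 fold change was 1.08 ± 0.21 (SE; edgeR adjusted p = 0.0018), from a low level. Its relative Slc1a4, which encodes ASCT1, did not pass (-0.07 ± 0.09, SE; edgeR adjusted p = 0.56). Slc38a2, which encodes the glutamine-carrying neutral amino acid transporter SNAT2, averaged 292.6 ± 28.7 CPM in the bigenic and 202.9 ± 16.4 CPM in the control libraries (SD, n = 4 each) and rose by 0.53 ± 0.09 (SE; edgeR adjusted p = 0.00073). Slc38a1, which encodes the related SNAT1, did not pass (-0.07 ± 0.09, SE; edgeR adjusted p = 0.57).

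Slc38a5, which encodes the glutamine transporter SNAT5, was the member of this family that fell most. It had 0.285, 1.95, 0.658 and 1.14 CPM in bigenic libraries 1 to 4 and 5.02, 5.54, 5.13 and 4.63 CPM in control libraries 1 to 4. Every bigenic library lay below every control for this gene, where 21.4% of all genes tested had such groups. Slc38a5 had a log2 fold change of -2.32 ± 0.39 (SE; edgeR adjusted p = 0.00078).

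The parts of the cystine-glutamate antiporter changed in opposite directions. Slc7a11, its light chain xCT, had 46.95, 42.2, 34.35 and 47.84 CPM in bigenic libraries 1 to 4 and 71.61, 90.92, 94.51 and 83.89 CPM in control libraries 1 to 4, a log2 fold change of -0.99 ± 0.12 (SE; edgeR adjusted p = 9.2e-05). Slc3a2, the heavy chain that xCT shares with other amino acid carriers, averaged 156.4 ± 10.4 CPM in the bigenic and 118.1 ± 2.58 CPM in the control libraries and rose by 0.41 ± 0.07 (SE; edgeR adjusted p = 0.00079). Neither pair of groups overlapped, as for 40.7% of all genes tested.

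The mitochondrial aspartate-glutamate carriers rose. Slc25a13, which encodes citrin, had 11.75, 9.77, 11.64 and 12.6 CPM in bigenic libraries 1 to 4 and 4.67, 6.87, 5.96 and 6.28 CPM in control libraries 1 to 4 (log2 fold change 0.94 ± 0.14, SE; edgeR adjusted p = 0.00033). Slc25a12, which encodes the more abundant aralar, averaged 222.6 ± 17.2 CPM in the bigenic and 177.9 ± 3.33 CPM in the control libraries and rose by 0.32 ± 0.07 (SE; edgeR adjusted p = 0.0035), a call lost with the Ttr covariate (edgeR adjusted p = 0.072). The mitochondrial glutamate carriers Slc25a18 (0.07 ± 0.09, SE) and Slc25a22 (0.27 ± 0.11, SE) did not pass.

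Enzymes linking glutamate to proline and ornithine were lower. Aldh18a1, which starts proline synthesis from glutamate, averaged 24.14 ± 3.04 CPM in the bigenic and 35.3 ± 1.39 CPM in the control libraries (SD, n = 4 each; log2 fold change -0.55 ± 0.10, SE; edgeR adjusted p = 0.00098). Oat, ornithine aminotransferase, averaged 146.3 ± 13.5 CPM in the bigenic and 179.4 ± 9.26 CPM in the control libraries (log2 fold change -0.29 ± 0.08, SE; edgeR adjusted p = 0.011), and Aldh4a1, which returns proline carbon to glutamate, 28.66 ± 1.42 CPM and 34.78 ± 2.26 CPM in the same order (-0.28 ± 0.08, SE; edgeR adjusted p = 0.015). Without control libraries 2 and 3 the adjusted p was 0.15 for Oat and 0.13 for Aldh4a1 by the same test, and without control library 2 alone it was 0.064 for Aldh4a1. Exons of Aldh4a1 overlap Gm21969 on the same strand.

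Gls2, the liver-type glutaminase, which returns glutamine to glutamate, passed narrowly. It averaged 17.78 ± 1.51 CPM in the bigenic and 21.7 ± 2.72 CPM in the control libraries, a log2 fold change of -0.29 ± 0.11 (SE; edgeR adjusted p = 0.048). Leaving out any library except control library 3 ended that call, with log2 fold changes of -0.31, -0.27, -0.25 and -0.33 without bigenic libraries 1 to 4 and -0.29, -0.31 and -0.20 without control libraries 1, 2 and 4.

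Of the transaminases, Got2 and Bcat1 passed narrowly. Got2, the mitochondrial aspartate aminotransferase, averaged 198.4 ± 18.6 CPM in the bigenic and 172.2 ± 5.81 CPM in the control libraries (log2 fold change 0.20 ± 0.08, SE; edgeR adjusted p = 0.049), and did not pass without bigenic library 3 (0.14) or 4 (0.18), or without control library 1 (0.20), 2 (0.19), 3 (0.23) or 4 (0.20). Bcat1, the cytosolic branched-chain transaminase, averaged 137.5 ± 11.9 CPM in the bigenic and 116.4 ± 6.39 CPM in the control libraries (0.24 ± 0.08, SE; edgeR adjusted p = 0.027), and did not pass when bigenic library 1 (0.23) or either of controls 2 (0.23) and 3 (0.21) was left out. With library size alone as the scaling neither passed, at 0.12 for Got2 (edgeR adjusted p = 0.20) and 0.15 for Bcat1 (edgeR adjusted p = 0.14). Both also missed the threshold with upper-quartile factors, without a filter, without control libraries 2 and 3, with the Ttr covariate (0.21 for Got2 and 0.14 for Bcat1) and in the limma fits (0.11 for Got2 and 0.14 for Bcat1 on log2(FPKM + 1)). The cytosolic Got1 did not pass (0.03 ± 0.07, SE; edgeR adjusted p = 0.76). Gls2, Got2 and Bcat1 each have an exon overlap with a gene on the opposite strand.

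The vesicular transporters that load glutamate at synapses did not pass. Slc17a7, which encodes VGLUT1 of granule cell terminals, had a log2 fold change of 0.17 ± 0.10 (SE; edgeR adjusted p = 0.18). Slc17a6 encodes VGLUT2, a protein of climbing fibre terminals and of cerebellar nuclear neurons, and is described because of 1 library seen in its values. It had 11.81, 21.83, 15.38 and 16.16 CPM in bigenic libraries 1 to 4 and 11.44, 17.69, 10.23 and 110.4 CPM in control libraries 1 to 4. Control library 4 stood far above the other 7 libraries. For Slc17a6 the log2 fold change of -1.20 ± 0.82 (SE, edgeR adjusted p = 0.27) did not pass. With the Ttr covariate it passed at -2.58 (edgeR adjusted p = 0.0013), in a fit that rests largely on control library 4.

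Of the genes of 5 proteins known to bind or regulate these transporters, 0 passed, where 44.3% of all genes tested did. At an unadjusted p under 0.05 there was 1. Over the 19 alternatives, between 0 and 3 were called higher and between 0 and 1 lower. Ajuba, a scaffold protein that binds GLT-1, was the gene at that unadjusted p (0.50 ± 0.21, SE; edgeR adjusted p = 0.076). It passed with the Ttr covariate (1.09, edgeR adjusted p = 0.019) and without control libraries 2 and 3 (0.89, edgeR adjusted p = 0.020). Arl6ip5, which restrains EAAC1, had -0.12 ± 0.07 (SE, edgeR adjusted p = 0.17), and passed with library size alone as the scaling (-0.21, edgeR adjusted p = 0.024). Every bigenic library lay below every control for Arl6ip5, as for 21.4% of all genes tested.

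**Figure D5:**
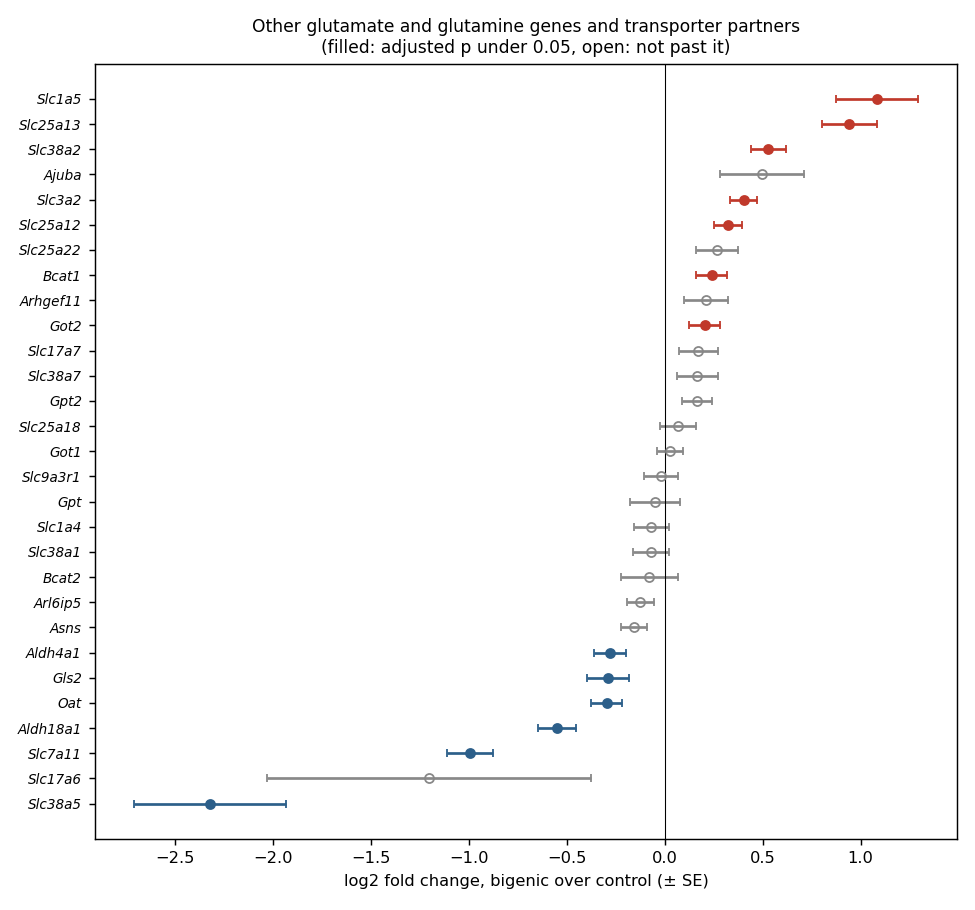
Log2 fold change, bigenic over control (x axis), with its SE, for further pathway genes tested and transporter partners. Filled symbols passed an adjusted p of 0.05: 7 lie to the right and 6 to the left of 0, with Slc1a5 at 1.08 and Slc38a5 at -2.32.

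Markers of the cells that express these genes were compared as well, and their counts stand beside the 21.4% of all genes called higher and the 22.9% called lower. Of 12 astrocyte markers 7 rose, among them Gjb6, Fgfr3 and Aldh1l1, and 1 fell, the water channel gene Aqp4. Only the bigenic mice carry the Aldh1l1-Cre/ERT2 driver, and its part in the Aldh1l1 reads was not tested. The 12 astrocyte markers had a median log2 fold change of 0.28. Their summed level was 8394 to 9989 CPM in bigenic and 7692 to 8113 CPM in control libraries. Of 10 Bergmann glia markers tested 2 rose (Gdf10 and Timp4) and 3 fell (Hopx, Fabp7 and Gria4; median 0.08), with summed levels of 3541 to 4007 CPM in bigenic and 3440 to 3835 CPM in control libraries. Of 12 Purkinje cell markers 2 rose and 0 fell (median 0.10), with 15720 to 17610 CPM in bigenic and 13940 to 16110 CPM in control libraries. Of 10 granule cell markers 4 rose (Cbln3, Rbfox3, Grin2c and Gabrd) and 2 fell (Gabra6 and Neurod1), with a median of 0.06 and summed levels of 5549 to 7303 CPM in bigenic and 5333 to 6547 CPM in control libraries. Of 10 oligodendrocyte markers 3 rose (Mbp, Mobp and Cldn11) and 3 fell (Ermn, Ugt8a and Opalin), with a median of -0.02 and summed levels of 4529 to 6093 CPM in bigenic and 4287 to 5211 CPM in control libraries. Summed astrocyte markers were higher in every bigenic library than in every control, and the ratio of Glul to them did not overlap between the groups either. Aldoc was the largest part of both sums. It held 3897 of 8394 CPM in bigenic library 2 and 3425 of 8113 CPM in control library 2. Without Aldoc, control library 2 lay above bigenic library 2, so the separation of the sum rests on that gene.

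Of the other cells a dissection can hold, 9 of 10 choroid plexus markers fell (median -3.43). So did 4 of 10 microglial markers (median -0.16) and 3 of 10 endothelial markers (Tek, Kdr and Tie1, median -0.19), and 0 rose in each list. Over all genes tested, 22.9% were called lower and 21.4% higher. Summed microglial markers were 146.7 to 174.7 CPM in bigenic and 190 to 224.4 CPM in control libraries. Summed endothelial markers were 226.4 to 248.6 CPM in bigenic and 258.6 to 289 CPM in control libraries. Neither sum overlapped between the groups. Tek held 11.44 of 248.6 CPM in bigenic library 1 and 27.17 of 258.6 CPM in control library 4. Without Tek, bigenic library 1 lay above control library 4, so the separation of the endothelial sum rests on that gene. The part of these cell types in the results for Slc38a3, Slc38a5 and the other genes that fell was not tested. Without control libraries 2 and 3 the median of the choroid plexus list was -1.21, with 4 markers called lower and 1 higher.

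The genes most like each changed member over the 8 libraries were found by the root mean square difference of centred log2 CPM, in log2 units. For Glul they were Ccdc149 (0.071), Mycl (0.085) and Smad9 (0.086). For Slc1a2 they were Ntrk2 (0.029), which encodes the neurotrophin receptor TrkB, Usp34 (0.040) and Peg10 (0.049). For Slc38a3 they were Cnn2 (0.068), Zbtb1 (0.074) and Oat (0.079). Ntrk2 averaged 479.9 ± 55.4 CPM in the bigenic and 401.7 ± 5.26 CPM in the control libraries (SD, n = 4 each). It shared the wide bigenic and narrow control spread of Slc1a2, which follows from how it was chosen.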

How the data were processed

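Total RNA of whole cerebellum from 4 bigenic and 4 control mice was sequenced. The series text and the sample protocols name different extraction and library kits. The authors deposited read counts per gene, which are whole numbers and not normalised. They also deposited FPKM, which on the values equal those counts per fixed gene length and column total. Alignment with STAR and counting with HTSeq on mm10 are listed in the submitters' processing notes; versions and the strand setting of the counting are not given in the sources used here, so overlapping genes may share reads.

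Counts were fitted with edgeR 4.0.16 in R 4.3.3 (filterByExpr, TMM, robust quasi-likelihood F test, group as the only term), with Benjamini-Hochberg adjustment over all 15186 genes tested and a threshold of 0.05. Log2 fold changes are bigenic over control. Their SE is the log2 fold change divided by the square root of F. CPM use TMM-scaled library sizes. The table has 24060 rows, 0 without a gene name. Ratios used deposited FPKM and exact permutation tests over the 70 assignments of the libraries, adjusted over 14 ratios and shares; these tests were run in scipy 1.17.1. Replicates are separate mice per the labels. DESeq2 1.42.0, limma 3.58.1 on log2(FPKM + 1), other scalings and filters, left-out libraries and a Ttr covariate were alternatives. The fit was also run on simulated data in which 200 genes were changed. Far more genes were called here, so that run does not cover a difference this broad. Coordinates and overlaps are from GENCODE M21 on GRCm38, the assembly called mm10, counted from 1.

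Members, lists and named genes were chosen with earlier results of these data known. All members, all pathway genes past the threshold and the 3 genes most like each called member are named; other genes were named after their values were seen. Same-numbered mice were not treated as pairs. Some genes of the lists are counted but not reported here by name.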

Additional observations from a re-analysis of the deposited data

Results flagged for a closer look

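Within groups of 4 libraries, 70 sets of values were examined for a library far from the others, and 4 were found. Chance gives about 1 in 20 for independent sets. The 70 sets are not independent, since several ratios share Glul and the transporter shares add to a whole. Whether 4 is more than chance gives can therefore not be told from this count. Slc1a3 was at 2817 CPM in bigenic library 3, against a group median of 2480 CPM. Slc38a3 per Glul was 0.0546 in control library 4, against a median of 0.0704. The share of Slc1a1 in the transporter FPKM was 2.16% in control library 4, against a median of 1.56%. Slc17a6 was at 110.4 CPM in control library 4, against a median of 14.6 CPM. Of the 4 values, 3 belong to control library 4, and without that library the log2 fold changes were 1.03 for Glul, 0.06 for Slc1a3, 0.21 for Slc1a1 and -0.36 for Slc38a3.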

How the results depend on the processing

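Glul kept its direction and its call in all 19 alternatives, between 0.92 and 1.04 on the log2 scale, and Slc1a1, Slc1a3 and Slc1a6 were called in none. Slc1a2 kept its call in 4 alternatives and Slc38a3 in 10, and the causes of the losses were not tested. The number of members called higher was 1 with library size alone, upper-quartile factors, no filter on low counts, control libraries 2 and 3 left out, the Ttr covariate and all 3 limma fits to log2 FPKM. It was 1 to 2 with 1 library left out. The number called lower was 0 with RLE factors, with control libraries 2 and 3 left out and with the Ttr covariate, and 0 to 1 with 1 library left out. Slc1a2 was not called at 0.165 (library size alone), 0.193 (upper-quartile factors), 0.232 (no filter), 0.242 (without control libraries 2 and 3), 0.219 (Ttr covariate) and 0.154, 0.155 and 0.154 (limma on log2 FPKM with a pseudocount of 1, of 0.1, and of 1 without a filter), and it ranged from 0.156 to 0.318 with 1 library left out. Slc38a3 was not called at -0.289 (RLE factors), -0.225 (without control libraries 2 and 3) and -0.120 (Ttr covariate), and ranged over -0.399 to -0.220 with 1 library left out. Glud1 was called at 0.171 by DESeq2, was 0.074 with library size alone, and ranged from 0.108 to 0.190 with 1 library left out. Over all genes, 1619 were higher and 1775 lower without control libraries 2 and 3, with 2 controls left, and 1270 higher and 1665 lower with the Ttr covariate. In the wider pathway 4 were higher with the Ttr covariate and 3 lower without control libraries 2 and 3.

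A replicate block was fitted as an alternative, although same-numbered mice deviated together in only part of the pairs (correlations 0.329, 0.024, 0.166 and 0.063), and bigenic library 2 correlated best with control library 1. Under this block 3648 genes were higher and 3795 lower, with 2 members higher and 1 lower. The 6 ratios whose groups did not overlap kept their direction in all 11 alternatives. Slc1a1 per Slc1a2 and the shares of Slc1a1 and Slc1a3, which passed no test, changed sign in some. Paired permutations cannot give a p under 0.125.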
